A study of Mus musculus with 3 samples.

Results

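Chondrocytes of the ear cartilage of mice were picked out of 3 ear skin libraries, each of single-cell RNA, by a rule on raw counts of unique molecular identifiers (UMIs, the tags that mark separate captured RNA molecules). A cell barcode was kept when it held 500 genes or more, its UMIs came to 1000 or more, and mitochondrial genes made up no more than 10% of them. It was taken as a chondrocyte with at least 6 UMIs over Col2a1, Acan, Col9a1 and Cnmd, at least 2 of these 4 genes detected, no UMI of Ptprc (the gene of CD45) or of Prox1 (a lymphatic transcription factor), and under 0.1% of its UMIs from the basal keratins Krt5 and Krt14. The rule found 1276 cells among 37961 kept barcodes (3.36%). They were 454 of 12941 barcodes in adult Lang-DTA (3.51%, exact binomial 95% interval 3.20 to 3.84%), 249 of 12621 in adult WT (1.97%, 1.74 to 2.23%) and 573 of 12399 in young WT (4.62%, 4.26 to 5.01%). The libraries were mixtures of sorted populations, so no direction was read from these shares.

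Adult Lang-DTA was 1 library from untreated Langerin-DTA mice aged 8 weeks (4 males, 6 females). Adult WT was 1 library from untreated C57BL/6J mice aged 8 weeks (6 males, 4 females), and young WT was 1 library from untreated C57BL/6J mice aged 4 weeks (5 males, 3 females). In Langerin-DTA mice the A chain of diphtheria toxin is driven by human Langerin regulatory sequence and kills epidermal Langerhans cells, so chondrocytes are not its target. The labels call the wild-type mice used beside Langerin-DTA mice littermates of hemizygous parents, while the titles of both wild-type samples give C57BL/6J, and no label says which of these the adult WT pool was. Ears were minced and digested with collagenase II, dispase and DNase, and 4 sorted populations went into each library in equal amounts: lymphatic endothelium, blood endothelium, CD45-positive cells, and cells lacking CD45 and CD31. No label gives the gate of a single cell, and 57, 23 and 73 chondrocytes of adult Lang-DTA, adult WT and young WT had a UMI of Pecam1, the gene of CD31. Each library pooled 8 to 10 mice with no replicate library, so no test between libraries was possible. All intervals given are 95% counting intervals that leave out differences between mice and between pools. Those of levels and ratios come from summed UMIs, taken as independent, so they also leave out differences between cells.

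The external ear is stiffened by elastic cartilage. Its chondrocytes build a matrix of type II, IX and XI collagen fibrils with aggrecan (Acan) bound to hyaluronan, and also an elastic network in which elastin (Eln) is laid on fibrillin microfibrils and cross-linked by lysyl oxidases. Sox9 with Sox5 and Sox6 drives the cartilage genes, and chondromodulin (Cnmd) is an inhibitor of vessel growth in this tissue without vessels. Chondrocytes of the mouse ear are also known for large lipid vacuoles.

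The 3 libraries held 124590777 to 137441575 UMIs in 12864 to 13600 barcodes, and 34 to 47 kept barcodes were shared by each pair of libraries. The chondrocytes carried 4593489 UMIs in adult Lang-DTA, 2756017 in adult WT and 7827224 in young WT, with medians of 9016.5, 10568 and 13080 UMIs per cell in the same order of libraries. From Y-linked genes and Xist, 145 cells were called male and 280 female in adult Lang-DTA, 118 and 113 in adult WT, and 337 and 221 in young WT. Gene levels are given as CPM, the UMIs of a gene per 1000000 summed UMIs of the chondrocytes of a library. The kit counts RNA 3' ends, and a level was compared only with that of the same gene.

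Markers that the rule did not use were present in nearly all of these cells. Wif1, a secreted Wnt inhibitor, had a UMI in 99.1% of chondrocytes of adult Lang-DTA, 98.4% of adult WT and 96.2% of young WT. Cytl1, a secreted protein known from cartilage, had a UMI in 94.3%, 95.98% and 94.1% of these cells. In leukocytes of the same libraries (at least 2 Ptprc UMIs, 2065, 2825 and 3070 cells with medians of 6048, 7652 and 10432 UMIs), which should lack both genes, the shares were 1.79%, 0.920% and 1.82% for Wif1 and 4.07%, 2.12% and 2.44% for Cytl1. Genes of dermal fibroblasts were present too: 338, 191 and 466 chondrocytes of adult Lang-DTA, adult WT and young WT had at least 2 UMIs over Pdgfra, Dpt, Lum and Clec3b. The summed level of the 10 fibroblast markers was 9399, 8859 and 7467 CPM, above the 2235, 2182 and 1909 CPM of all other kept barcodes. Most of each chondrocyte sum was Dcn, at 7050, 6688 and 3913 CPM, which is also a proteoglycan gene of cartilage. The sums are thus no measure of fibroblast RNA in these cells.

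The genes of the rule are given as a description. Col2a1, the chain of type II collagen, stood at 317 CPM in adult Lang-DTA, 378 CPM in adult WT and 1209 CPM in young WT, and Acan at 551, 559 and 805 CPM. Col9a1 stood at 601, 747 and 1171 CPM and Cnmd at 885, 832 and 1074 CPM. Young WT was highest for each of the 4 genes. The median chondrocyte held 18, 21 and 39 UMIs of the 4 genes in adult Lang-DTA, adult WT and young WT. At the edge of the rule, the 47 cells with exactly 6 of these UMIs had Wif1 at 1430 CPM, Cytl1 at 3963 CPM and Sox9 at 465 CPM, and 53 barcodes with exactly 5 that otherwise met the rule had 1734, 3775 and 336 CPM.

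**Figure D1:**
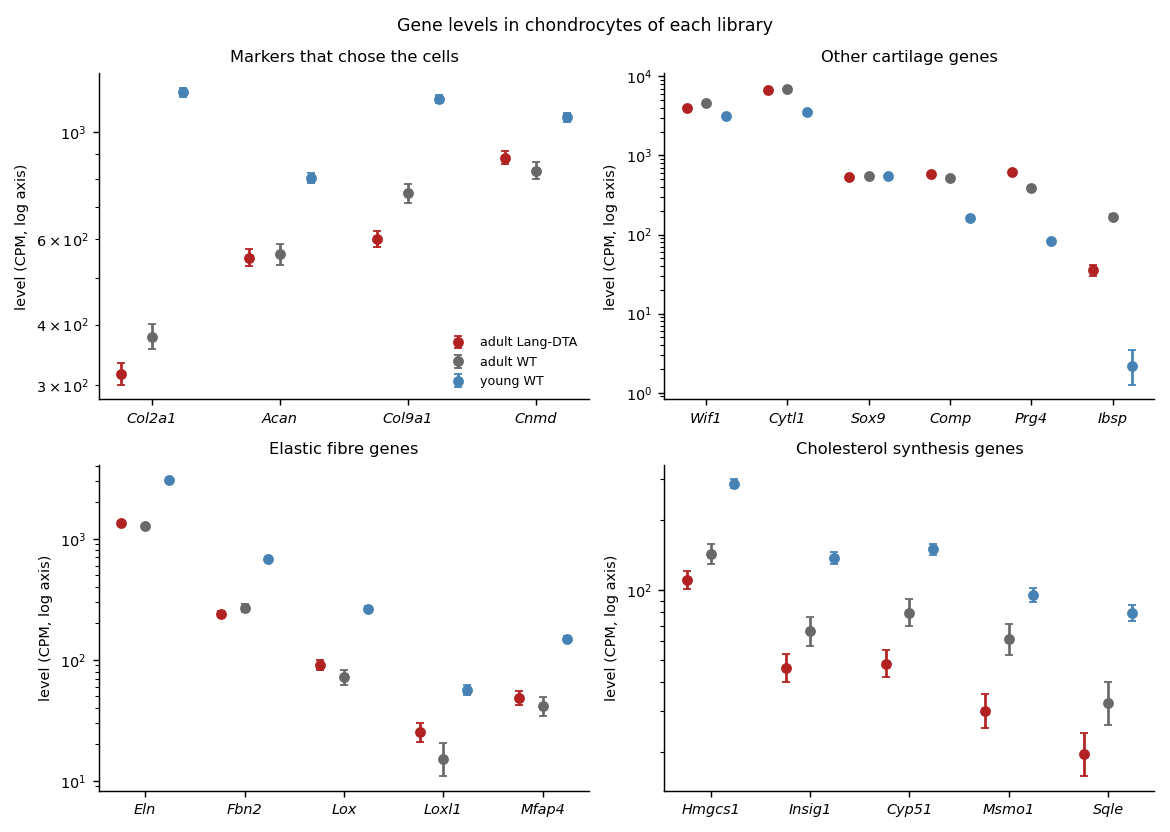
Levels of 20 genes in the chondrocytes of adult Lang-DTA (red), adult WT (grey) and young WT (blue), in CPM on a log axis, with exact 95% counting intervals as bars. Ibsp lies at 35.5, 166 and 2.17 CPM, while Sox9 lies between 537 and 555 CPM in all 3 libraries.

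Clustering of the 1276 cells gave 6 groups, which are named by number and described by their leading genes, summed over the libraries. Cluster 0 (331 cells) was led by Msmp, at 1094 CPM, and had Comp at 663 CPM and Cytl1 at 8101 CPM. Cluster 4 (205 cells) had the highest Col2a1 (1464 CPM) and Wif1 (7231 CPM), with Trf, the gene of transferrin, at 474 CPM and Corin, a membrane protease, at 208 CPM. Cluster 3 (230 cells) had the highest Eln, 4694 CPM, and the unnamed gene 1520401A03Rik at 4446 CPM. Cluster 1 (240 cells) was led by Csmd3 at 158 CPM and Il1rapl2 at 136 CPM.

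Clusters 2 and 5 carried genes of other cell types. Cluster 2 (238 cells) was led by Angptl7, a marker of the perichondrial-type stroma beside the cartilage, at 2057 CPM. It had Mfap4 at 397 CPM and Igfbp2 at 401 CPM, and the lowest Acan (114 CPM) and Wif1 (960 CPM) of all clusters, with Sox9 at 439 CPM. Cluster 5 (32 cells) was led by Fabp4 at 3677 CPM and had the endothelial gene Pecam1 at 816 CPM. Its median was 22814.5 UMIs per cell, and 28 of its cells were called doublets. Cluster 3 also held genes of cornifying skin, with Ly6d at 81.1 CPM and Krt10 at 108 CPM.

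Single genes of lipid and sterol synthesis differed between the clusters. Scd1, the stearoyl-CoA desaturase, was at 694 CPM in cluster 4 and 548 CPM in cluster 3, against 49.6 to 244 CPM in the other clusters. Dgat2, which makes triglyceride, was at 133 CPM in cluster 4 and 166 CPM in cluster 3, against 15.9 to 50.7 CPM elsewhere. The whole list of fatty acid and lipid droplet genes did not follow them, with sums of 6101 CPM in cluster 0, 6009 CPM in cluster 4, 4421 CPM in cluster 3 and 7447 CPM in cluster 5. The summed level of the 23 cholesterol genes was 2281 CPM in cluster 4, 1679 CPM in cluster 1 and 1422 CPM in cluster 3, and 591 to 909 CPM in the remaining clusters. Prg4, the gene of lubricin, was at 664 CPM in cluster 4 and at 0.30 CPM in cluster 2.

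The clusters took unlike numbers of cells from the libraries. Cluster 0 held 173 cells of adult Lang-DTA, 98 of adult WT and 60 of young WT, and cluster 1 held 32, 19 and 189. Cluster 2 held 89, 44 and 105, cluster 3 held 97, 36 and 97, cluster 4 held 46, 46 and 113, and cluster 5 held 17, 6 and 9. The genes that define the clusters also differ between the libraries, so the cell numbers are not read as a difference.

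**Figure D2:**
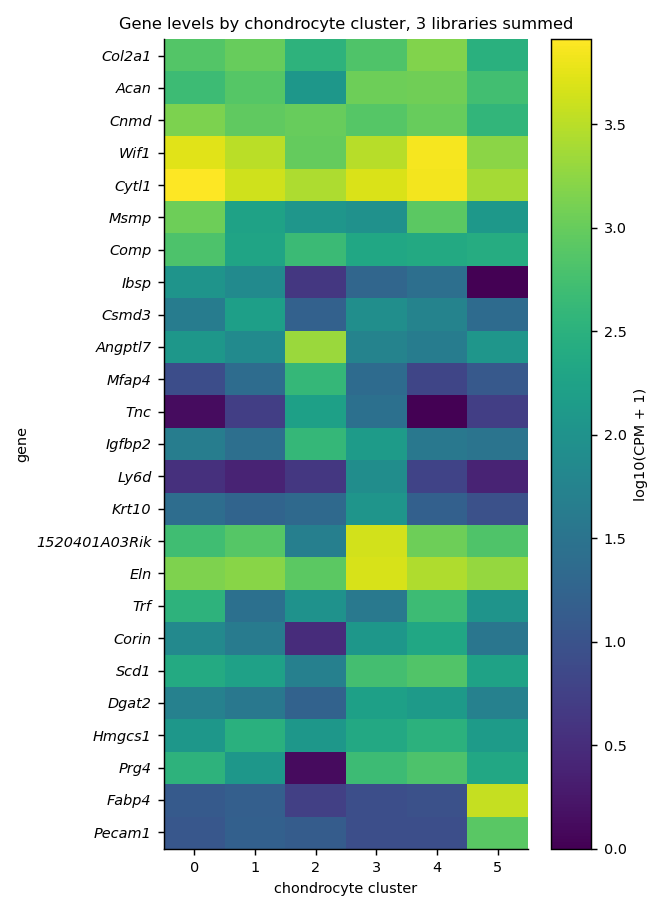
Levels of 25 genes (rows) in the 6 chondrocyte clusters (columns), with the cells of all 3 libraries summed, as log10 of CPM + 1. Angptl7 marks cluster 2 (2057 CPM), Ly6d cluster 3 (81.1 CPM), Corin is highest in cluster 4 (208 CPM), and Fabp4 marks cluster 5 (3677 CPM).

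In adult WT against young WT chondrocytes, several groups of matrix genes were lower. Collagens, elastic fibre genes, basement membrane genes and enzymes of cholesterol synthesis had medians between 0.71 and 1.01 below 0 on the log2 scale, while Sox9, Sox5 and Sox6 stood at nearly the same level in both. Genes higher in adult WT included Ibsp, Gpx3, Trf, Prg4, Comp, Myoc and Clu. The 9 perichondrial-type markers, of which Clu and Chad are members, summed to 3682 CPM in adult WT against 2154 CPM in young WT chondrocytes, with UMIs of all 9 in both. Clu made 1408 against 439 CPM of these sums and Chad 770 against 448 CPM. Of 8 measured markers, 4 were above 0 and 4 below, 2 were at least 1.5-fold higher, and the median log2 ratio was -0.10. The part of these markers in the differences was not tested. Of 6945 genes with a mean of at least 20 CPM, 458 (6.59%) were at least 1.5-fold higher in adult WT and 392 (5.64%) at least 1.5-fold lower. The median log2 ratio of all of them was -0.07 (quartiles -0.28 and 0.15), and with the median gene set to 0 the numbers were 559 higher and 294 lower. With 1 library a side, past 1.5-fold is a size and not a test.

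Among the collagens, 13 of 18 measured genes were at least 1.5-fold lower in adult WT and 0 were higher, with a median log2 ratio of -0.84. The list holds the rule genes Col2a1 and Col9a1. Col2a1, used by the rule, had a log2 ratio of -1.68 (-1.77 to -1.58). Col9a2, a partner chain of Col9a1 on the type II fibril, was at 70.8 CPM in adult WT against 150 CPM in young WT, with a log2 ratio of -1.08 (-1.31 to -0.86). Col14a1, a fibril-associated collagen, was at 70.0 CPM in adult WT against 189 CPM in young WT (log2 ratio -1.43, -1.66 to -1.21). Col3a1, a chain of connective tissue more than of cartilage, was at 1293 CPM in adult WT against 2596 CPM in young WT (-1.01, -1.06 to -0.95). Both cartilage and connective tissue chains were among the lower genes. Col27a1 stood apart, at 931 CPM in adult WT and 858 CPM in young WT.

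The elastic fibre list had the lowest median of the 21 lists, -1.01, with 15 of 17 measured genes at least 1.5-fold lower in adult WT and 0 higher. Eln itself was at 1357 CPM in adult Lang-DTA, 1280 CPM in adult WT and 3054 CPM in young WT. The adult WT over young WT log2 ratio of Eln was -1.25 (-1.31 to -1.20). Fbn2, the fibrillin best known from developing tissue, was at 268 CPM in adult WT against 680 CPM in young WT (-1.35, -1.46 to -1.23). The cross-linking enzymes were unlike each other. Lox was at 71.5 CPM in adult WT against 264 CPM in young WT (-1.89, -2.10 to -1.67). Loxl1 was at 15.2 CPM in adult WT against 56.3 CPM in young WT (-1.89, -2.38 to -1.43), whereas Loxl4, of the same family, was at 235 CPM in adult WT against 230 CPM in young WT (0.03). Mfap4, a microfibril-associated protein, was at 41.4 CPM in adult WT against 148 CPM in young WT (-1.84, -2.13 to -1.56), and Fbln2 at 34.8 against 95.7 CPM (-1.46, -1.78 to -1.15). Under the alternatives tried, the number at least 1.5-fold lower ran from 10 to 16.

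As a list, proteoglycans did not follow the collagens. Of 14 measured, 3 were at least 1.5-fold higher in adult WT (Prg4, Dcn and Chad) and 2 lower (Hspg2 and Hapln1), with a median log2 ratio of 0.14. The members were split, with 8 above 0 and 6 below. Acan, a gene of the rule, was lower but short of 1.5-fold, at 559 CPM in adult WT against 805 CPM in young WT (-0.53). Decorin (Dcn), a small proteoglycan that binds collagen fibrils, was at 6688 CPM in adult WT against 3913 CPM in young WT (0.77, 0.75 to 0.80). Chondroadherin (Chad) was at 770 CPM in adult WT against 448 CPM in young WT (0.78, 0.70 to 0.86). Hapln1, the link protein that fixes aggrecan to hyaluronan, was at 206 CPM in adult WT against 345 CPM in young WT (-0.74, -0.87 to -0.61). The small proteoglycan Dcn and the aggrecan link protein thus stood on opposite sides.

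Of 16 other matrix proteins, 4 were above 0 and 12 below, with a median log2 ratio of -0.25 (-0.29 to 0.14 over the alternatives). At least 1.5-fold higher in adult WT were 4 (Comp, Cytl1, Matn3 and Fibin), and 4 were lower (Tnc, Thbs1, Matn4 and Fn1). Cartilage oligomeric matrix protein (Comp) was at 588 CPM in adult Lang-DTA, 516 CPM in adult WT and 160 CPM in young WT, so that both adult libraries lay above the young one (adult WT over young WT 1.69, 1.58 to 1.80). Cytl1 was at 6631, 6999 and 3517 CPM in the same order (0.99, 0.97 to 1.02). Tenascin C (Tnc) was at 28.1 CPM in adult Lang-DTA, 5.81 CPM in adult WT and 63.1 CPM in young WT (-3.44, -4.26 to -2.73). The 16 Tnc UMIs of adult WT came from 3 cells, and the gene stood at 163 CPM in cluster 2 and at most 26.7 CPM in the other clusters. Matn3 had a log2 ratio of -0.94 in the 52 adult WT and 92 young WT cells without Pecam1 or fibroblast markers, with a range over the alternatives from -0.94 to 1.31. Those cells had no Pecam1 UMI and under 2 UMIs over Pdgfra, Dpt, Lum and Clec3b.

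**Figure D3:**
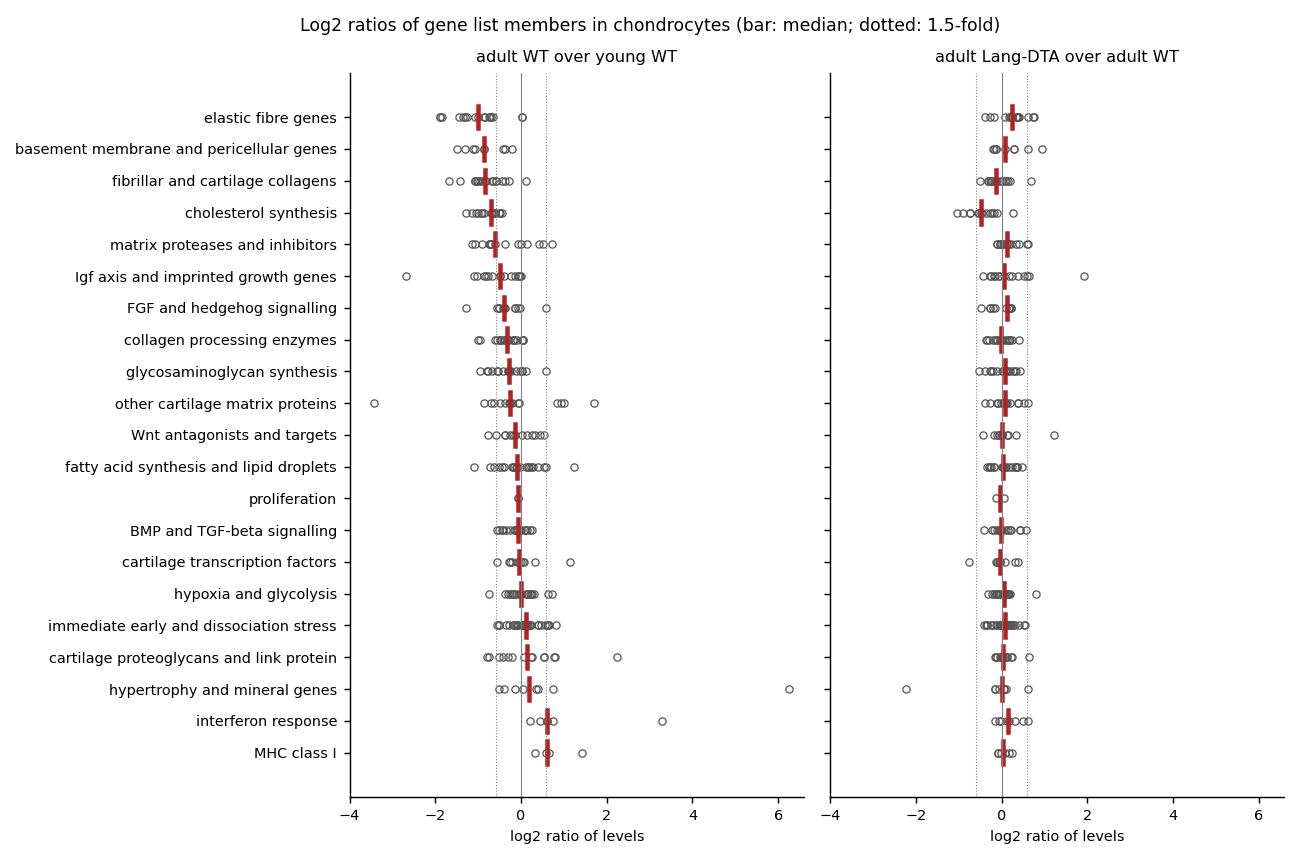
Log2 ratios of the measured members (circles) of 21 gene lists in chondrocytes, adult WT over young WT on the left and adult Lang-DTA over adult WT on the right, with the list median as a red bar and 1.5-fold as dotted lines. On the left the elastic fibre median lies at -1.01 and the collagen median at -0.84, and on the right the cholesterol median lies at -0.47.

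Lists of genes that shape the matrix were lower to unlike degrees. Of the basement membrane and pericellular genes, 6 of 9 were at least 1.5-fold lower in adult WT, all 9 were below 0 and the median was -0.88. Among them Nid2 (nidogen 2) was at 48.6 CPM in adult WT against 137 CPM in young WT (-1.49, -1.76 to -1.23). Of the proteases and inhibitors, 8 of 15 were lower, with a median of -0.62. The gelatinase Mmp2 was at 161 CPM in adult WT against 338 CPM in young WT (-1.07, -1.22 to -0.92). Cst3, the protease inhibitor cystatin C, was the only higher gene of that list, at 3303 CPM in adult WT against 1996 CPM in young WT (0.73). Of the enzymes that process collagen, 3 of 18 were lower (Adamts3, Bmp1 and Serpinh1, the collagen chaperone). Of the enzymes of glycosaminoglycan synthesis, 4 of 18 were lower (Chpf, Xylt1, Chsy1 and Papss2). The medians of these 2 lists were -0.34 and -0.29.

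Cartilage transcription factors had a median log2 ratio of -0.05 between adult WT and young WT, with 1 of 11 measured members past 1.5-fold. Sox9 was at 537 CPM in adult Lang-DTA, 551 CPM in adult WT and 555 CPM in young WT. Runx1, the exception, was at 274 CPM in adult Lang-DTA, 467 CPM in adult WT and 212 CPM in young WT (adult WT over young WT 1.14, 1.03 to 1.24). Adult WT was thus higher in Runx1 than both other libraries.

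Ibsp, the gene of bone sialoprotein, an acidic glycoprotein of mineralized tissue, had the largest age ratio among genes of the naming rule. It lies at chr5:104299171-104311469 (GRCm38, GENCODE M21). Its level was 35.5 CPM in adult Lang-DTA (163 UMIs in 35 cells), 166 CPM in adult WT (457 UMIs in 33 cells) and 2.17 CPM in young WT (17 UMIs in 14 cells). The adult WT over young WT log2 ratio was 6.25 (5.56 to 7.05), at 5.55 in male-called and 6.68 in female-called cells. After thinning every cell to 3000 UMIs, 4.66% of adult Lang-DTA, 9.62% of adult WT and 0.353% of young WT chondrocytes had an Ibsp UMI, and before thinning 7.71%, 13.3% and 2.44%. None of 2065, 2825 and 3070 leukocytes had an Ibsp UMI, which allows shares up to 0.145%, 0.106% and 0.0977% at 3 counts, or 0.178%, 0.130% and 0.120% as exact 95% upper limits. The UMIs were gathered in few cells: in adult WT 1 cell held 130 of them and the 5 highest cells 64.6%. Of the other mineral genes, S100a1 was also past 1.5-fold (133 CPM in adult WT against 79.7 CPM in young WT), while Mmp13, the collagenase of hypertrophic cartilage, had no UMI in any chondrocyte.

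The bases before the Ibsp start are shown because Ibsp had the largest absolute ratio among the named genes of both comparisons. They are the 250 bases before the RefSeq start (chr5:104299037-104299286, plus strand, GRCm38.p6), with letter matches in capitals to TTTATA and, on the other strand, to CCAAT. Over 32817 promoters of the same length, TTTATA or its complement was found in 12.4% and CCAAT or its complement in 33.8%, so either match is a description of letters only.
Ibsp: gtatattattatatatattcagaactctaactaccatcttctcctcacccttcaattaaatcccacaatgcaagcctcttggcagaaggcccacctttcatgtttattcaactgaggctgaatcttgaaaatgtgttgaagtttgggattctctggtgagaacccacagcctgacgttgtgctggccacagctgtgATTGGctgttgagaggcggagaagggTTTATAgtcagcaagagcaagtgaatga

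Genes met by the naming rule and higher in adult WT (234 met it, and the 12 with the interval limit farthest from 0 are named) included secreted proteins, a stress gene and a Notch target. Gpx3, a secreted glutathione peroxidase, was at 150 CPM in adult Lang-DTA, 127 CPM in adult WT and 5.49 CPM in young WT (adult WT over young WT 4.53, 4.08 to 5.03). Its share of thinned cells was 16.9%, 15.5% and 1.59%. Prg4, the lubricin of joint surfaces, was at 610, 389 and 82.3 CPM (2.24, 2.10 to 2.38), with 1.19 in male-called and 2.95 in female-called cells. The naming rule required the same direction in male-called and female-called cells, so that agreement was fixed in advance. These ratios of adult WT over young WT differed in size.

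Trf was at 202 CPM in adult Lang-DTA, 424 CPM in adult WT and 83.0 CPM in young WT (adult WT over young WT 2.35, 2.21 to 2.49). The metallothionein Mt1, at 962, 763 and 185 CPM, and the Notch target Hes1, at 415, 549 and 133 CPM, had log2 ratios of 2.05 and 2.04. Myocilin (Myoc) was at 2536, 2458 and 630 CPM (1.96, 1.91 to 2.02). The extracellular chaperone clusterin (Clu, 1.68), the lipocalin Apod (1.77), the water channel Aqp2 (2.06), the chitinase-like protein Chil1 (1.62) and Comp completed the 12. Of the 12, Ibsp, Trf and Hes1 lay between adult WT and young WT in adult Lang-DTA with intervals below 0 for adult Lang-DTA over adult WT (-2.49 to -1.96, -1.20 to -0.95 and -0.50 to -0.31), as did Clu by a smaller amount (-0.21 to -0.09).

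Of the genes lower in adult WT (244 met the rule), Igfbp2, a binding protein of insulin-like growth factors, was at 111 CPM in adult Lang-DTA, 29.4 CPM in adult WT and 188 CPM in young WT (adult WT over young WT -2.67, -3.01 to -2.35). 1520401A03Rik was at 623, 504 and 2035 CPM (-2.01, -2.09 to -1.93), and stood at least 163-fold above all other kept barcodes in every library. Pappa2, a protease that cleaves binding proteins of insulin-like growth factors, was at 38.5, 10.2 and 41.3 CPM (-2.02, -2.63 to -1.46). The remaining named genes were Tnc, C1qtnf3 (-2.51), Rgs7 (-2.22), Thbs2 (16.7 CPM in adult WT against 67.0 CPM in young WT), Pamr1 (-1.94), Lox, Mfap4, Loxl1 and Col2a1. Over the whole list of the insulin-like growth factor axis and imprinted growth genes, 7 of 16 were at least 1.5-fold lower in adult WT and 0 higher, with a median of -0.49. They included the imprinted genes Plagl1 at 44.6 CPM in adult WT against 91.3 CPM in young WT, and Dlk1 at 16.7 against 35.5 CPM.

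Cholesterol synthesis was lower across the list, with 12 of 15 measured genes at least 1.5-fold lower in adult WT, all 15 below 0 and a median of -0.71. Hmgcs1, the synthase that makes HMG-CoA, was at 111 CPM in adult Lang-DTA, 143 CPM in adult WT and 288 CPM in young WT (adult WT over young WT -1.01, -1.16 to -0.85). Thinned to 3000 UMIs, 23.7%, 26.4% and 45.8% of cells had a Hmgcs1 UMI. Squalene epoxidase (Sqle) was at 19.6, 32.7 and 79.6 CPM (-1.29, -1.62 to -0.96), and the sterol sensor Insig1 at 46.2, 66.4 and 137 CPM (-1.04, -1.28 to -0.82). Each of these was lowest in adult Lang-DTA and highest in young WT. Inside cluster 4 alone, with 46 adult WT and 113 young WT cells, 5 genes of the list were at least 1.5-fold lower.

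Fatty acid and lipid droplet genes, in contrast, had a median of -0.08, with 3 of 21 lower in adult WT (Scd2, Acly and Fasn) and 1 higher. The higher gene was Fabp4, at 244 CPM in adult WT against 104 CPM in young WT (1.23), and without the cells called doublets its log2 ratio was -0.74 (range over the alternatives -0.96 to 1.59). Markers of blood endothelium, which also holds Fabp4, summed to 254 CPM in adult WT against 96.1 CPM in young WT chondrocytes, with UMIs of all 9 markers in both. The triglyceride enzyme Dgat2 was at 74.2 CPM in adult Lang-DTA, 72.6 CPM in adult WT and 79.1 CPM in young WT.

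Bases before the starts of 3 sterol enzymes are shown because synthesis of sterols is controlled through short elements there, and because the list was lower in adult WT and again lower in adult Lang-DTA. Hmgcs1 makes HMG-CoA (chr13:119690101-119690350, plus strand), Msmo1 removes methyl groups from sterol precursors (chr8:64733579-64733828, minus strand) and Cyp51 demethylates lanosterol (chr5:4104698-4104947, minus strand), each as 250 RefSeq bases of GRCm38.p6. Capitals mark letter matches on either strand to CCAAT and to TCACNCCAC, the letters of a sterol regulatory element, which are in 33.8% and 1.05% of 32817 promoters. Hmgcs1 held 3 matches of CCAAT and 1 of TCACNCCAC, Msmo1 3 and 0, and Cyp51 1 and 0. Of the 23 list genes, 16 had a promoter in the table, of which 16 held CCAAT and 1, Hmgcs1, held TCACNCCAC.
Hmgcs1: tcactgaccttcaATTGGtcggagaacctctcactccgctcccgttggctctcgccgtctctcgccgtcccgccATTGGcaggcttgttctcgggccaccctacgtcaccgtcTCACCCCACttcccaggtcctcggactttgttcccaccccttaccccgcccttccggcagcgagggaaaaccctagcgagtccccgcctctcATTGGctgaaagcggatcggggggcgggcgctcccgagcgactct
Msmo1: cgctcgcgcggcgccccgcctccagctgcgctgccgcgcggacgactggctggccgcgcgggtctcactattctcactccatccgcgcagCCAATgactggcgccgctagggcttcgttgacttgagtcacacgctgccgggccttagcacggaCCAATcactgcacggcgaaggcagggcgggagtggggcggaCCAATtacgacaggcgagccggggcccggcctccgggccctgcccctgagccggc
Cyp51: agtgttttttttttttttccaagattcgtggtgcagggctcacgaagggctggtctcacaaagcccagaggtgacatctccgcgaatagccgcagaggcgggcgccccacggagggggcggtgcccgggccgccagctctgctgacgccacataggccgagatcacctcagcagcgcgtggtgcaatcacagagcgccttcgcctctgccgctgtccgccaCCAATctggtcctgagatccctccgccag

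Measured genes of interferon response and of MHC class I had log2 ratios above 0 for adult WT over young WT, as did the blood endothelial markers (254 CPM against 96.1 CPM). Of 32 interferon genes found, 6 passed 20 CPM, and 4 of these were at least 1.5-fold higher (Iigp1 and Irf1 among them). Iigp1, an interferon-induced GTPase, was at 76.6 CPM in adult Lang-DTA, 84.9 CPM in adult WT and 8.69 CPM in young WT (adult WT over young WT 3.29, 2.89 to 3.70). The MHC class I genes H2-K1, at 59.9 CPM in adult WT against 22.4 CPM in young WT (1.42), and H2-D1, at 149 against 95.6 CPM (0.64), were the 2 of 4 past 1.5-fold, and reads of such near copies can be split between them. Iigp1, at 681 CPM, and H2-K1, at 311 CPM, were highest in cluster 5, where most cells were called doublets. Without called doublets the adult WT over young WT log2 ratios were 4.94 for Iigp1, 1.32 for H2-K1 and 0.63 for H2-D1. Few cells carried Iigp1: 14 of 249 adult WT and 14 of 573 young WT chondrocytes had a UMI of it. It stood at 53.2 CPM in cluster 0 and at 0.79 to 2.70 CPM in clusters 1 to 4. Inside cluster 4 alone H2-K1 had its lowest ratio of the alternatives, 0.62, with 1.49 as the highest.

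Signalling lists had few members past 1.5-fold. BMP and TGF-beta genes had 0 of 18 members past 1.5-fold in either direction (median -0.07), and the Wnt list 1 of 13 lower (Sfrp2, -0.77) with Wif1 at 4022 CPM in adult Lang-DTA, 4574 CPM in adult WT and 3178 CPM in young WT. The 12 FGF and hedgehog genes had a median of -0.40, with 11 below 0. Among them Fgf18, a growth factor of cartilage, was lower, at 21.0 CPM in adult WT against 51.5 CPM in young WT (-1.29), and Spry2, a brake on FGF signals, was higher (0.59). Of 32 immediate early genes, which digestion can also induce, 4 were higher (Cxcl1, Egr2, Zfp36 and Ier3) with a median of 0.11. Of 22 proliferation genes only Tubb5 and Pcna passed 20 CPM, and neither was past 1.5-fold. A Mki67 UMI was present in 0.222% of adult Lang-DTA, 0.837% of adult WT and 0.707% of young WT cells after thinning.

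In adult Lang-DTA against adult WT chondrocytes, far fewer genes differed in size. Of 6868 genes with a mean of at least 20 CPM, 103 (1.5%) were at least 1.5-fold higher in adult Lang-DTA and 69 (1.0%) at least 1.5-fold lower, with a median log2 ratio of -0.02. Ibsp, Trf and 4 cholesterol genes were among the lower, and Igfbp2, Pappa2, Pamr1 and Angptl7 among the higher. This comparison uses the same adult WT library as the age comparison, so the ratios of both comparisons are not independent.

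Few matrix genes were past 1.5-fold between the 2 adult libraries. Of the collagens 1 of 18 was higher in adult Lang-DTA (Col12a1, at 157 CPM against 98.3 CPM in adult WT) and 0 lower, with a median of -0.13. Eln had a log2 ratio of 0.08 (0.02 to 0.14) and Sox9 of -0.04 (-0.13 to 0.06). The rule genes Col2a1, at -0.26 (-0.37 to -0.14), and Acan, at -0.02 (-0.11 to 0.07), are given as a description. In the elastic fibre list 3 of 17 were higher (Loxl2, Loxl1 and Ltbp1) and 0 lower, with a median of 0.25. Loxl2 was at 92.3 CPM in adult Lang-DTA against 54.4 CPM in adult WT (0.76, 0.49 to 1.04). In cells without Pecam1 or fibroblast markers, Loxl2 had a log2 ratio of -0.28 and Loxl1 of -0.60, and inside cluster 4 Ltbp1 of -2.56. The ranges over the alternatives were -0.28 to 1.03, -0.60 to 1.38 and -2.56 to 1.08.

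Ibsp was lower in adult Lang-DTA, at 35.5 CPM against 166 CPM in adult WT (log2 ratio -2.22, -2.49 to -1.96), with -1.40 in male-called and -2.77 in female-called cells. Inside cluster 4 the ratio was 0.12, with a range over the alternatives from -2.77 to 0.12. Trf was lower too, at 202 CPM against 424 CPM in adult WT (-1.07, -1.20 to -0.95), and inside cluster 4 at 477 CPM against 1132 CPM (-1.25, -1.48 to -1.02). Ibsp and Trf are both genes that were higher in adult WT than in young WT.

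Cholesterol synthesis had 4 of 14 measured genes at least 1.5-fold lower in adult Lang-DTA (Msmo1, Stard4, Sqle and Cyp51) and 0 higher, with a median of -0.47 and 13 of 14 genes below 0. Msmo1 was at 30.0 CPM in adult Lang-DTA against 61.3 CPM in adult WT (-1.03, -1.36 to -0.70). Cyp51 was at 48.1 CPM against 79.8 CPM in adult WT (-0.73, -1.01 to -0.45), and Hmgcs1, short of 1.5-fold, at 111 CPM against 143 CPM (-0.37, -0.56 to -0.18), with a range over the alternatives from -0.51 to 0.018. Sqle was at 19.6 CPM against 32.7 CPM, with a ratio of 0.01 in male-called cells. The number past 1.5-fold ran from 1 to 8 over the alternatives, and the median from -0.61 to -0.24.

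Of the other lower genes of the rule (30 met it), the transcription factor Runx1 was at 274 CPM in adult Lang-DTA against 467 CPM in adult WT (-0.77, -0.88 to -0.66). The calcium-binding protein S100a4 was at 273 CPM against 450 CPM (-0.72) and Ptpn2, a phosphatase of cytokine signals, at 172 CPM against 270 CPM (-0.65). Tifa (-0.92), Cpxm1 (-0.73), the growth factor Tgfa (-1.06) and the transcription factor Sim1 (-1.35) completed the 12. Inside cluster 4, Tgfa had a ratio of 0.09 and Sim1 of 0.99. Runx1, S100a4 and Ptpn2 kept their sign under every alternative run.

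Of the higher genes (37 met the rule), Igfbp2 was at 111 CPM in adult Lang-DTA against 29.4 CPM in adult WT (1.92, 1.58 to 2.27). Pappa2 was at 38.5 CPM against 10.2 CPM (1.92, 1.34 to 2.55) and Pamr1 at 42.9 CPM against 13.4 CPM (1.68, 1.16 to 2.22). Angptl7 was at 743 CPM against 410 CPM (0.86, 0.76 to 0.95), and the imprinted long RNA Meg3 at 545 CPM against 348 CPM (0.65, 0.54 to 0.76). The matrix proteins Dpt (1.01), Svep1 (1.01) and Thbs1 (0.62), the neuron navigator Nav2 (0.93), the hormone Stc2 (0.84), thrombomodulin (Thbd, 0.95) and the cytokine Tnfsf9 (1.29) were also named. In the list of the insulin-like growth factor axis, Igfbp2, Plagl1 and Igfbp5 were the 3 of 15 past 1.5-fold, all higher.

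Several of these genes stood high in cluster 2, the cluster led by Angptl7, and moved with the cells counted. Within cluster 2, Igfbp2 was at 327 CPM in adult Lang-DTA against 87.6 CPM in adult WT (1.90, 1.47 to 2.36), and Pappa2 at 134 against 43.8 CPM (1.62, 1.0 to 2.29). Angptl7 within it was at 2604 against 1667 CPM (0.64, 0.54 to 0.75). The 102 adult Lang-DTA and 52 adult WT cells without Pecam1 or fibroblast markers were those with no Pecam1 UMI and under 2 UMIs over Pdgfra, Dpt, Lum and Clec3b. In them the ratio was -0.39 for Igfbp2, -0.51 for Angptl7, -0.45 for Thbs1 and -0.30 for Thbd. Dpt is itself one of the markers that removed cells there, so its value in them says nothing of Dpt. Perichondrial-type markers summed to 4009 CPM in adult Lang-DTA against 3682 CPM in adult WT, with UMIs of all 9 markers in both. Angptl7, itself one of these markers, made 743 against 410 CPM of the sums over all chondrocytes. Of 8 measured markers, 6 were above 0 and 2 below, 1 was at least 1.5-fold higher, and the median log2 ratio was 0.30. Their part in these differences was not tested.

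Keratinocyte markers summed to 181 CPM in adult Lang-DTA, 63.9 CPM in adult WT and 77.3 CPM in young WT, with UMIs of 8, 9 and 9 of the 10 markers, and within cluster 3 to 583, 66.5 and 208 CPM. Their part in the differences was not tested. Prg4, for which the ratio of adult Lang-DTA over adult WT was 0.65 (0.55 to 0.75), was at 1254 CPM in adult Lang-DTA against 199 CPM in adult WT in that same cluster 3. The 5 highest cells held 48.8% of the 2800 Prg4 UMIs of adult Lang-DTA, and the ratio was -0.10 in male-called cells. Interferon genes had 1 of 8 past 1.5-fold (Irgm1, 0.63), and MHC class I genes 0 of 6.

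Inside each of the 6 clusters, the summed collagen, elastic fibre and cholesterol lists were lower in adult WT than in young WT. Proteoglycan sums were higher in adult WT in clusters 0 to 4, with 17116 CPM in adult WT against 15218 CPM in young WT in cluster 0. They were 14142 against 12417 CPM in cluster 4, and lower in cluster 5, at 8870 against 9145 CPM. Over all chondrocytes the proteoglycan list summed to 16036 CPM in adult WT against 13116 CPM in young WT. Dcn alone made 6688 and 3913 CPM of these sums. These values are a description, since the same genes also shaped the clusters. The elastic fibre list summed to 2422 CPM in adult WT against 5270 CPM in young WT in cluster 0, 4782 against 10974 CPM in cluster 3 and 3722 against 6643 CPM in cluster 4. Col2a1, on which the cells were chosen, had adult WT over young WT log2 ratios of -1.73 in cluster 0, -1.81 in cluster 1, -1.78 in cluster 2, -2.14 in cluster 3 and -1.80 in cluster 4. Eln was lower in adult WT in clusters 0 to 4, with ratios from -2.46 to -0.99, and at 0.33 in the 6 adult WT and 9 young WT cells of cluster 5. The summed cholesterol list was at 1886 CPM in adult WT against 2597 CPM in young WT in cluster 4, and at 605 against 863 CPM in cluster 0.

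Ibsp within clusters was uneven. In cluster 0 it was at 35.7 CPM in adult Lang-DTA and 291 CPM in adult WT, with no UMI in young WT, and in cluster 1 at 130, 770 and 2.61 CPM, where adult WT had 19 cells. In cluster 4 it was at 69.5, 64.0 and 0.649 CPM, and in cluster 3 at 40.7, 14.3 and 4.65 CPM. Adult WT was thus far above adult Lang-DTA in clusters 0 and 1, and the order was not kept in clusters 3 and 4. Over all adult WT chondrocytes, 1 cell held 130 of the 457 Ibsp UMIs and the 5 highest cells 64.6%. The level of a cluster can therefore rest on few cells.

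**Figure D4:**
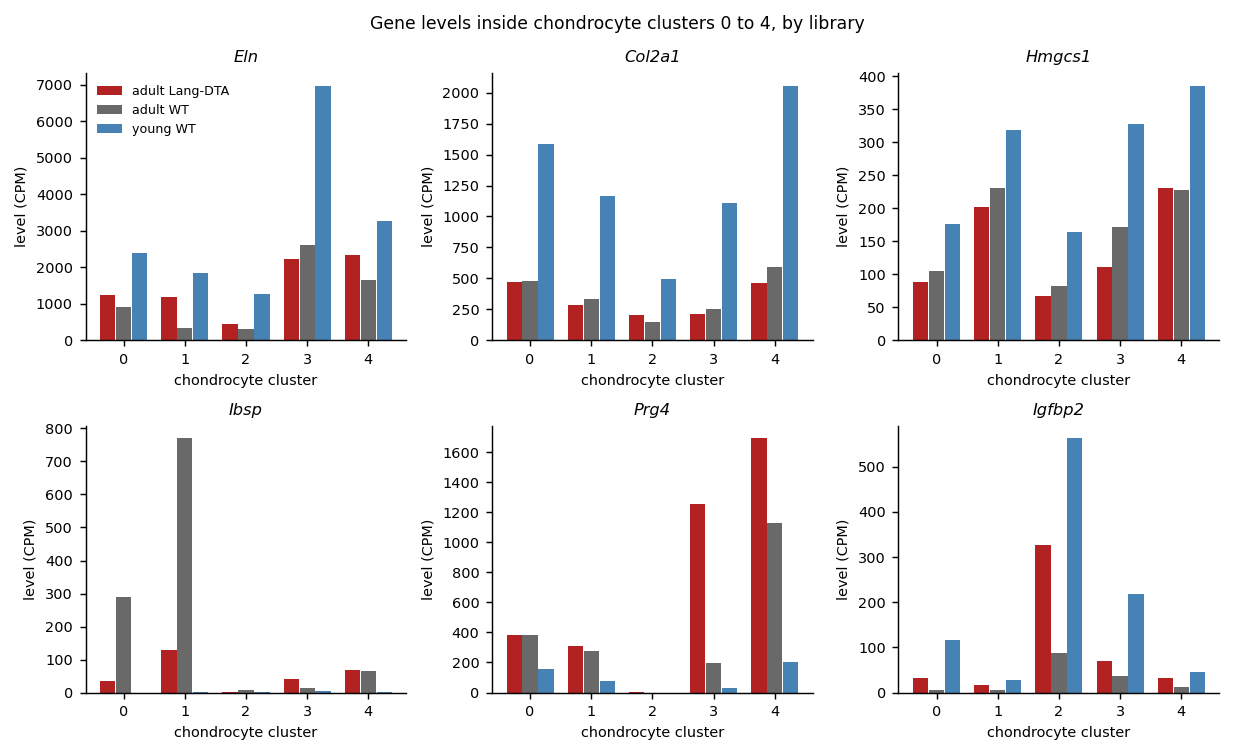
Levels (CPM) of 6 genes inside clusters 0 to 4 for adult Lang-DTA (red), adult WT (grey) and young WT (blue) chondrocytes, bars from 0. Young WT is the highest bar for Eln and Col2a1 in every one of these clusters, and Ibsp in adult WT reaches 770 CPM in cluster 1, where that library has 19 cells. Over all clusters, the 5 highest adult WT cells held 64.6% of the Ibsp UMIs of that library.

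The same comparisons were set beside 2 other stromal sets defined by rule and sharing no cell with the chondrocytes. Perichondrial-type cells (at least 4 UMIs of Angptl7 and Chad, both detected) numbered 585 in adult Lang-DTA, 170 in adult WT and 144 in young WT, and dermal fibroblasts (at least 6 UMIs of Pdgfra, Dpt, Lum and Clec3b) 278, 289 and 191. For adult WT over young WT, the elastic fibre median was -1.01 in chondrocytes, -0.71 in perichondrial-type cells and -0.33 in fibroblasts. The collagen medians were -0.84, -0.60 and -0.54 and the cholesterol medians -0.71, -0.66 and -0.41 in the same order. Chondrocytes had the lowest of the 3 medians in each case, with no test of the difference. The medians cover unlike genes, since each set has its own measured members. These were 18, 14 and 13 collagens, 17, 20 and 20 elastic fibre genes, and 15, 10 and 12 cholesterol genes. The collagens also hold Col2a1 and Col9a1, on which only the chondrocytes were chosen.

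Some single genes also differed between the 3 sets. Eln had an adult WT over young WT log2 ratio of -1.25 in chondrocytes, -2.29 in perichondrial-type cells and -0.17 in fibroblasts. Ibsp was at 4.20 CPM in adult WT perichondrial-type cells and 0.788 CPM in adult WT fibroblasts, against the 166 CPM of adult WT chondrocytes. Trf was at 19.6 CPM in adult WT perichondrial-type cells and 13.4 CPM in adult WT fibroblasts, against 424 CPM in adult WT chondrocytes. The naming rule had required Ibsp and Trf to reach at least the level of all other barcodes in adult WT chondrocytes. Their contrast with the other sets is thus partly built in and is a description. Hes1, Myoc, Mt1, Apod, Clu and Comp were higher in adult WT than in young WT in all 3 sets, with Hes1 ratios of 2.04 in chondrocytes, 1.99 in perichondrial-type cells and 1.87 in fibroblasts. For adult Lang-DTA over adult WT, the cholesterol medians were -0.47, -0.12 and -0.29, and Igfbp2 ratios were 1.92, 1.16 and 0.46. Of the cholesterol genes 4 of 14, 0 of 8 and 0 of 11 were at least 1.5-fold lower. Over all measured genes these numbers were 69 of 6868, 85 of 6812 and 87 of 6691. At such shares, 0 of 8 and 0 of 11 do not set those cells apart from their other genes.

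**Figure D5:**
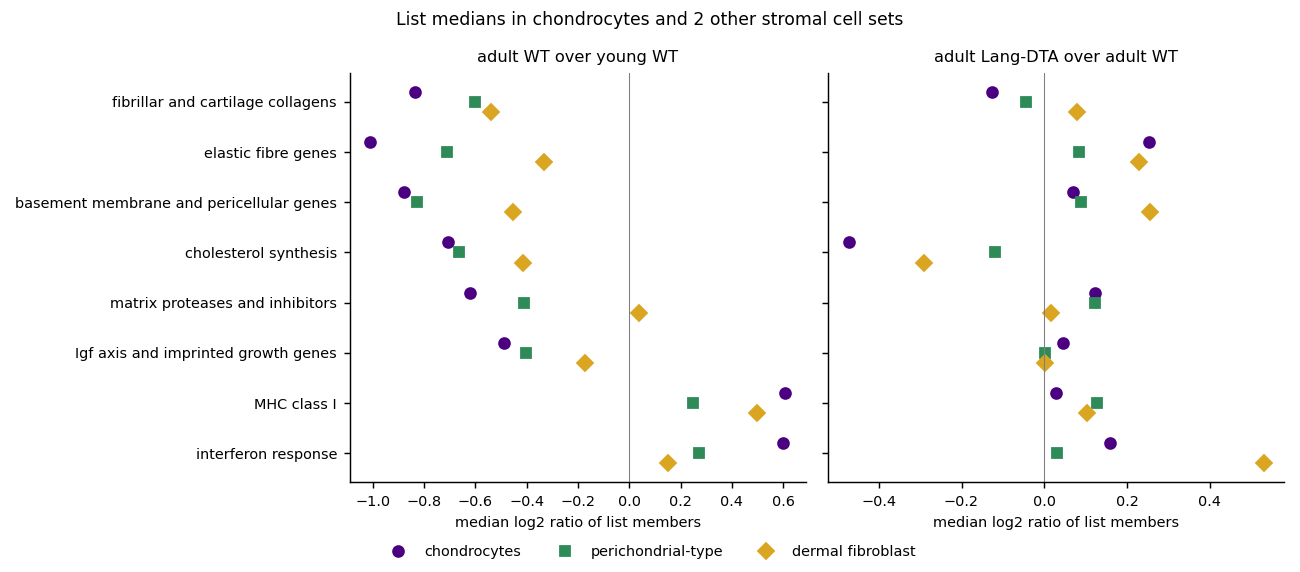
Median log2 ratios of 8 gene lists in chondrocytes, perichondrial-type cells and dermal fibroblasts, adult WT over young WT on the left and adult Lang-DTA over adult WT on the right. Each median covers the members measured in that cell set. On the left the elastic fibre medians are -1.01, -0.71 and -0.33 in that order of cell sets, and on the right the interferon medians are 0.16, 0.03 and 0.53.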

How the data were processed

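The authors deposited raw UMI counts per gene and called cell barcode for each library, without normalization. Per the labels' protocols the kit was 10x 3' v4, and per the submitters' processing notes the counts were made with Cell Ranger 8.01 (8.0.1 per the file headers) on GRCm38. For the annotation release and the use of intronic reads, the answer is not given in the sources used here. Chondrocytes were taken by the rule, and their counts were summed per library and scaled per 1000000. Ratios have exact conditional binomial 95% intervals and were checked on simulated counts. Cells were clustered from 2000 variable genes, 20 principal components and 15 neighbours (Leiden, resolution 0.5), without mitochondrial, ribosomal protein, sex-linked marker and immediate early genes. Doublets were called from 2 simulated doublets per cell, and called cells were kept. The members and gene lists were chosen with earlier results of these data known. Named genes needed at least 100 UMIs over both libraries, 30 CPM in the higher library and a level there at least that of its other barcodes, at least 1.5-fold in all cells and 1.25-fold the same way in male-called and female-called cells. They were ranked by the interval limit nearest 0, and 12 per direction are given, with up to 4 of the largest ratios per list. Other list genes, and cluster genes, were named after their values were seen. Of 31053 gene IDs, 31011 were found in GENCODE M21, and 3 list genes were not found. Single-gene values of 1 list member are not reported here. Alternatives changed the scaling, the floor, the weighting, the marker threshold and the cells. Cells without Pecam1 or fibroblast markers had no Pecam1 UMI and under 2 UMIs over Pdgfra, Dpt, Lum and Clec3b. That limit is on raw UMIs, so it depends on the depth of a cell, and it leaves a minority of the chondrocytes. Python 3.11.15, scanpy 1.11.5, leidenalg 0.10.2, igraph 0.11.9, scikit-learn 1.9.0, scipy 1.17.1, matplotlib 3.10.9, numpy 2.4.6 and pandas 2.3.3 were used.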

Additional observations from a re-analysis of the deposited data

How the results depend on the processing

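No paired analysis was possible because each condition is 1 library. Adult WT gave the fewest chondrocytes, 249. Intervals of ratios hold only the counting error of summed UMIs, without the spread between cells, and differences between pools could not be measured. Collagen, elastic fibre and cholesterol medians kept their sign in both comparisons under every alternative run, except the collagen and elastic fibre medians of adult Lang-DTA over adult WT, which ranged from -0.27 to 0.14 and from -0.16 to 0.33. The 2 settings by cluster were chosen after seeing the data. The cause of the changes below was not tested, except that a floor, fewer cells or fewer genes change counts by construction.

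Genes at least 1.5-fold higher and lower in adult WT against young WT, 458 and 392 as reported, were 2464 and 2016 with no floor, 257 and 196 with a floor of 50 CPM, 931 and 947 without cells with Pecam1 or fibroblast markers (102, 52 and 92 cells left in adult Lang-DTA, adult WT and young WT) and 762 and 762 in cluster 4. In female-called cells 665 were lower. With the median gene set to 0, 65.5% of the genes past 1.5-fold were higher, against 53.9% as reported. Interferon genes higher in adult WT, 4 as reported, were 2 with cells weighted equally, in female-called cells, with the floor of 50 CPM and in cluster 4, and 23 with no floor. Cholesterol genes lower were 5 in cluster 4.

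For adult Lang-DTA against adult WT, the 103 higher and 69 lower genes were 1575 and 1991 with no floor, 27 and 25 with the floor of 50 CPM, 238 and 251 in male-called cells, 266 and 239 in female-called cells, 481 and 792 without cells with Pecam1 or fibroblast markers and 621 and 781 in cluster 4. With a marker threshold of 12 UMIs 167 were higher, and in clusters 0, 1 and 4 together 184 were lower.

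Named genes past 1.5-fold turned their sign as follows. For adult WT over young WT, Fabp4 was at -0.13 in male-called cells, -0.74 without called doublets, -0.40 without cells with Pecam1 or fibroblast markers, -0.58 in clusters 0, 1 and 4 and -0.96 in cluster 4, and Matn3 at -0.94 without cells with Pecam1 or fibroblast markers. For adult Lang-DTA over adult WT without cells with Pecam1 or fibroblast markers, Igfbp2 was at -0.39, Angptl7 at -0.51, Dpt at -1.45 (a marker by which that setting removes cells), Loxl1 at -0.60, Loxl2 at -0.28, Meg3 at -0.010, Thbd at -0.30, Thbs1 at -0.45 and Sim1 at 1.51. In clusters 0, 1 and 4, Thbd was at -0.31 and Thbs1 at -0.14. In cluster 4, Ibsp was at 0.12, Igfbp5 at -0.23, Loxl1 at -0.33, Ltbp1 at -2.56, Plagl1 at -0.33, Sim1 at 0.99, Tgfa at 0.087 and Thbs1 at -0.81. In male-called cells, Col4a1 was at -0.18, Prg4 at -0.10 and Sqle at 0.011. Of named genes short of 1.5-fold, adult Lang-DTA over adult WT ranged over 0 for Hmgcs1 (-0.51 to 0.018), Wif1 (-0.20 to 0.38), Cytl1 (-0.26 to 0.49), Sox9 (-0.13 to 0.29), Col2a1 (-0.55 to 0.052), Acan (-0.31 to 0.37) and Cnmd (-0.011 to 0.39), and adult WT over young WT for Sox9 (-0.26 to 0.11).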
